A study of Homo sapiens with 5 samples.

Results

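The cells described here are the TBR1/PPP1R17 cells of day 26 (D26) of a differentiation of human pluripotent stem cells toward gonadotropin-releasing hormone (GnRH) neurons. A D26 barcode was kept when it held at least 1500 unique molecular identifiers (UMIs, each standing for 1 captured RNA molecule) and at least 1000 genes, with under 20% of its UMIs from mitochondrial genes. A kept cell was a TBR1/PPP1R17 cell when it held 3 or more UMIs of TBR1 and PPP1R17 summed, 0 UMIs of DLX1, DLX2, DLX5, DLX6 and DLX6-AS1, and GNRH1 below 1000 CPM (UMIs per 1000000 UMIs). The rule selected 7169 of the 11060 kept D26 cells, or 64.8% (95% exact Clopper-Pearson interval 63.9 to 65.7%), from 12171 deposited barcodes. The whole series held 44007 barcodes, of which 41427 were kept.

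The study asked which cell populations arise along the GnRH neuron differentiation. Cells of WA09, a human embryonic stem cell line labelled wild type, were taken through dual SMAD inhibition, then FGF8, then the Notch inhibitor DAPT, and were collected at D22, D24 and D26 without the Wnt inhibitor XAV939. A separate multiplexed run held earlier days, with and without XAV939, and only 25 of its 11718 kept cells met the rule. Each of D22, D24 and D26 was 1 sample and 1 droplet library, and the labels do not say how many cultures went into it. No difference below therefore has a replicate check, no p-value is given, and day and library cannot be told apart.

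TBR1 is a T-box transcription factor of young glutamatergic neurons of the forebrain, and PPP1R17 encodes an inhibitor of protein phosphatase activity known from Purkinje cells and from neuronal precursors of the human cortex. Glutamatergic neurons load glutamate into synaptic vesicles through vesicular transporters, of which SLC17A6 (VGLUT2) is the usual form outside the mature cortex. The DLX homeobox genes mark the forebrain GABAergic lineage, whose neurons make GABA with GAD1 and GAD2 and load it with SLC32A1 (VGAT).

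The 250 bases upstream of the RefSeq start of the 2 selecting genes are shown because their transcripts chose the cells. Both windows lie on the plus strand of GRCh38.p14 and end just before the GENCODE v44 start of their gene. Capitals mark the homeodomain core TAATTA, the only motif of the 3 searched that occurred in either window.
TBR1, chr2:161416047-161416296: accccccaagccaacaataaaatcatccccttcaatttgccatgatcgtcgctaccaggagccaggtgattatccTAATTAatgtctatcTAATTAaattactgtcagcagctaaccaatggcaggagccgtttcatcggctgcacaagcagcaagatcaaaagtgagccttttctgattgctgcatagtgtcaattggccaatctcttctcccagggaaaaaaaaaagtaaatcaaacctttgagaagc
PPP1R17, chr7:31686965-31687214: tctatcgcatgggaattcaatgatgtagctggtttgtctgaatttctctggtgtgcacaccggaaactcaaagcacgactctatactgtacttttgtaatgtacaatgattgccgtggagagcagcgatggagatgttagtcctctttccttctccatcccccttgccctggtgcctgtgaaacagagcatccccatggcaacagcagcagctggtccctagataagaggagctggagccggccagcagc
The TBR1 window held TAATTA 2 times at a GC content of 42.8%, and the PPP1R17 window held none at 50.8%. Over both strands TAATTA occurred in 4.49% of 27305 RefSeq promoter windows of this length, the E-box CAGATG in 12.2% and the T-box core TCACACC in 2.72%. Of the 7 genes that were highest in the TBR1/PPP1R17 cells (named below) and had a window, TAATTA was found for EMX2 and MGAT4C, CAGATG for SAMD3 and LHX9, and TCACACC for 0. A match is a description of letters only.

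TBR1 (chr2:161416297-161425870 in GENCODE v44, overlapping the same-strand gene SLC4A10) had a median of 3 UMIs per TBR1/PPP1R17 cell, with quartiles at 2 and 4 and a maximum of 19. PPP1R17 (chr7:31687215-31708455) had a median of 4, with quartiles at 2 and 7 and a maximum of 27. The 2 genes were found together in most cells, since 6204 cells (86.5%) held both, 481 (6.71%) held TBR1 only and 484 (6.75%) held PPP1R17 only. At the threshold, 827 cells held exactly 3 UMIs of the pair and 687 otherwise eligible cells held exactly 2. Cells at 2 UMIs were shallower, with a median of 6997 UMIs in all against 7576 at 3 UMIs. The share of eligible cells that passed also followed depth, over 4 depth groups of near-equal size, from 62.5% in cells of 1594 to 6876 UMIs to 92.3% in cells of 9813 to 62015 UMIs.

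**Figure D1:**
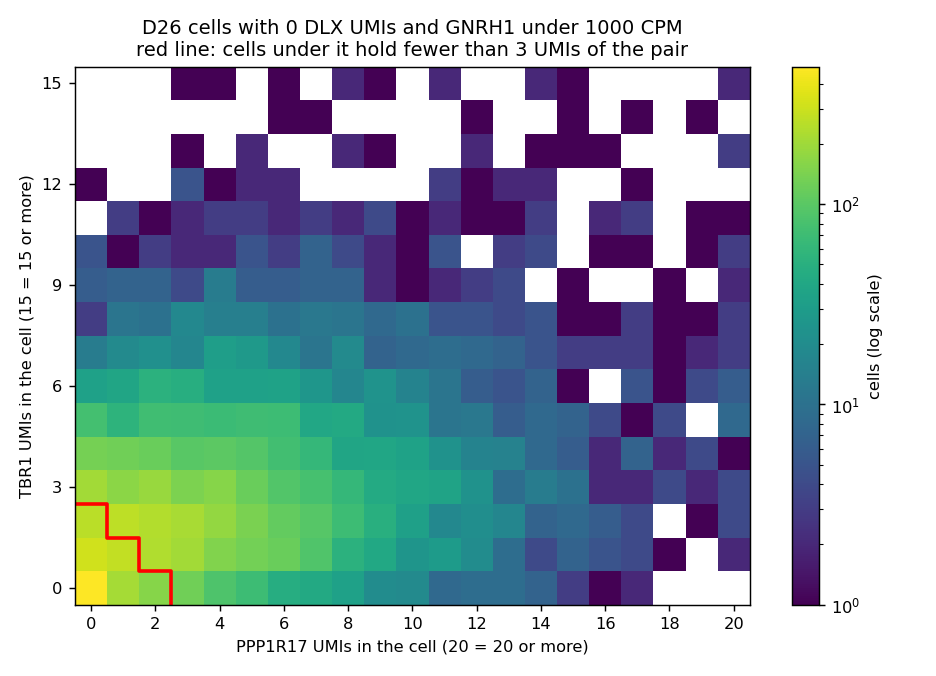
D26 cells with 0 DLX UMIs and GNRH1 below 1000 CPM, by PPP1R17 UMIs (x axis) and TBR1 UMIs (y axis), with the number of cells as colour on a log scale. The red line is the threshold of 3 UMIs, and counts run on across it without a gap, with 687 cells at 2 UMIs and 827 at 3.

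The kept D26 cells outside the rule fell into 4 groups. DLX-positive cells (1540, at least 1 UMI of the 5 DLX genes and fewer than 3 of TBR1 and PPP1R17) served as the main comparison. A further 1697 cells had no DLX UMI but fewer than 3 UMIs of the pair and are called below threshold. Cells with both a DLX UMI and 3 or more UMIs of the pair numbered 506, with a median of 13570.5 UMIs, and 47.4% of them were scored as doublets. Among them, 191 cells held exactly 1 DLX UMI with GNRH1 below the limit. Their median was 9387 UMIs and 13.6% were scored as doublets. The last 148 had no DLX UMI and GNRH1 over the limit. Depth was similar in the 2 main groups, with medians of 8622 UMIs and 3069 genes in TBR1/PPP1R17 cells and 8871 UMIs and 2972 genes in DLX-positive cells. The median mitochondrial share was 4.48% and 3.85%, and the share scored as doublets 7.87% and 2.27%. Levels are CPM over the summed UMIs of a group's cells, with exact Poisson intervals that cover counting error only, as do all intervals here. The 2 groups differ by the rule, and the rule genes and every gene measured in the same cells are therefore given as description.

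TBR1/PPP1R17 cells carried the vesicular glutamate transporter SLC17A6 at 67.5 CPM (65.6 to 69.5), against 6.13 CPM (4.88 to 7.6) in DLX-positive cells. The other vesicular glutamate transporters, SLC17A7 and SLC17A8, were not detected in 66171737 UMIs, which for SLC17A7 allows at most 0.0557 CPM. GABRA2, the alpha-2 subunit of the GABA-A receptor, stood at 296 against 16.1 CPM (log2 ratio 4.20, 4.01 to 4.4). CDH12, a classical type II cadherin, stood at 117 against 5.32 CPM, and CALB2, the calcium-binding protein calretinin, at 67.1 against 3.69 CPM. All 4 marker genes that the rule did not use were thus several-fold higher than in DLX-positive cells. SLC17A6 was nevertheless higher still in the below-threshold cells, at 85.5 CPM (80.2 to 91.0).

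After every cell was thinned to 1500 UMIs, GABRA2 was found in 34.6% of TBR1/PPP1R17 cells (33.5 to 35.7%) and in 1.88% of DLX-positive cells (1.26 to 2.69%). SLC17A6 was found in 8.94% (8.29 to 9.63%) and 0.584% (0.268 to 1.11%). Without thinning the shares were 83.1% and 7.99% for GABRA2 and 39.2% and 3.25% for SLC17A6, the second value of each pair being the share in DLX-positive cells. GAD2 gave the opposite picture, at 0.112% of thinned TBR1/PPP1R17 cells and 24.6% of thinned DLX-positive cells. Of the 4 markers GABRA2, CDH12, SLC17A6 and CALB2, at full depth 6.75% of TBR1/PPP1R17 cells held all 4, 26.7% held 3, 39.2% held 2, 23.1% held 1 and 4.30% held 0. Depth moved with that number, from a median of 7090.5 UMIs in cells with 0 markers to 10279.5 in cells with 4. In DLX-positive cells 88.0% held none.

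Of the markers that would define the label, SLC17A6 was present and GABAergic genes were near 0, while markers of the more specific neuron types checked were present in part. GABAergic genes were close to 0 in TBR1/PPP1R17 cells, with GAD2 at 0.771, GAD1 at 0.136 and SLC32A1 at 0.257 CPM. The cortical projection neuron genes NEUROD2 and EMX1 stood at 0.529 and 0.0453 CPM, and NEUROD6 had no UMI. TBR1, RELN, CALB2 and LHX5 are shared with Cajal-Retzius neurons, the early reelin-secreting cells of the cortical surface. The Cajal-Retzius genes TP73, CXCR4 and NDNF were nevertheless near 0, at 0.227, 0.710 and 2.61 CPM, while the summed level of all 14 genes of that list was 698 CPM against 180 in DLX-positive cells, carried mostly by RELN, LHX1, LHX5 and CALB2. Of 20 genes of olfactory sensory neurons, OMP, CNGA2, RTP2 and STOML3, which belong to the mature cells, had no UMI. Of the 9 of them that reached 10 CPM in either group, 4 were at least 2-fold higher than in DLX-positive cells, namely EMX2 (519 against 36.0 CPM), LHX2 (169 against 29.3 CPM), the G protein subunit GNG8 (39.1 against 18.3 CPM) and the channel subunit CNGB1 (31.5 against 10.7 CPM). The G protein subunit GNAL was lower, at 14.3 against 45.8 CPM. Over all 8467 genes at that floor, 4.17% were higher and 2.75% lower. EMX2 and LHX2 also belong to the dorsal and LIM homeobox lists given below. Glial and non-neural genes were low, with 21 of 23 under 10 CPM in both groups and SOX10 and PTPRC at 0 in TBR1/PPP1R17 cells.

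Counted over genes with at least 50 CPM in either group, 129 of 3413 genes were at least 2-fold higher in TBR1/PPP1R17 cells than in DLX-positive cells (3.78%) and 76 were at least 2-fold lower (2.23%). A gene was counted by its ratio alone, whatever the interval. These shares are the background for the gene groups below, where lists use a floor of 10 CPM, at which 353 of 8467 genes were higher (4.17%) and 233 lower (2.75%), with a median log2 ratio of 0.10.

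Ranked by the ratio with 10 CPM added to both levels, the genes higher in TBR1/PPP1R17 cells began with SAMD3 (337 against 14.6 CPM), the noncoding LHX5-AS1 (718 against 47.6 CPM) and GABRA2, and several transcription factors followed. LHX1 and LHX5, LIM homeobox factors of early-born neurons, stood at 195 against 9.38 CPM and 113 against 6.35 CPM. LHX9, a LIM factor of dorsal forebrain and diencephalic neurons, stood at 142 against 5.98 CPM (log2 ratio 4.57, 4.25 to 4.90). EMX2, a homeobox factor of the dorsal telencephalon and the olfactory epithelium, was at 519 against 36.0 CPM. RORB, an orphan nuclear receptor, was at 112 against 7.38 CPM. LHX5-AS1 overlaps LHX5 on the other strand, and EMX2OS likewise overlaps EMX2. Whether such overlaps, or the same-strand overlap of TBR1 with SLC4A10, affected counts was not tested. Other leading genes were MGAT4C, a glycosyltransferase homologue (289 against 16.5 CPM), and BMP3, a secreted BMP family member (91.9 against 4.06 CPM).

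EMX2, SAMD3 and LHX5-AS1 were found in most TBR1/PPP1R17 cells. EMX2 was at 0 in 4.17% of cells, with a median of 484 CPM per cell and quartiles at 299 and 698 CPM. SAMD3 was at 0 in 9.29% of cells with a median of 306 CPM, and LHX5-AS1 in 2.89% with a median of 647 CPM. In DLX-positive cells the same 3 genes were at 0 in 82.3%, 92.9% and 82.5% of cells. RELN, the secreted glycoprotein reelin, was at 0 in 24% of TBR1/PPP1R17 cells, at a lower level than these 3 genes, so the shares at 0 cannot be compared as spread.

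The genes with the largest ratios among those lower included GABAergic lineage genes and secreted factors. GAD2, ISL1, a LIM factor, and SLC32A1 each stood below 1 CPM in TBR1/PPP1R17 cells, against 219, 130 and 62.6 CPM in DLX-positive cells. SCGN, the calcium-binding protein secretagogin, was at 0.620 against 234 CPM, and RASD1, a Ras-related GTPase, at 0.967 against 257 CPM. The growth factors FGF3 and FGF19, which neighbour each other on chromosome 11, were at 0.166 and 0.181 CPM against 99.5 and 84.8 CPM. MEF2C, a MADS-box factor with antisense transcripts at its locus, was at 4.73 against 159 CPM, ECEL1 at 3.05 against 116 CPM, RALYL at 9.75 against 146 CPM, and the guidance cue SEMA3C at 0.816 against 75.5 CPM.

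**Figure D2:**
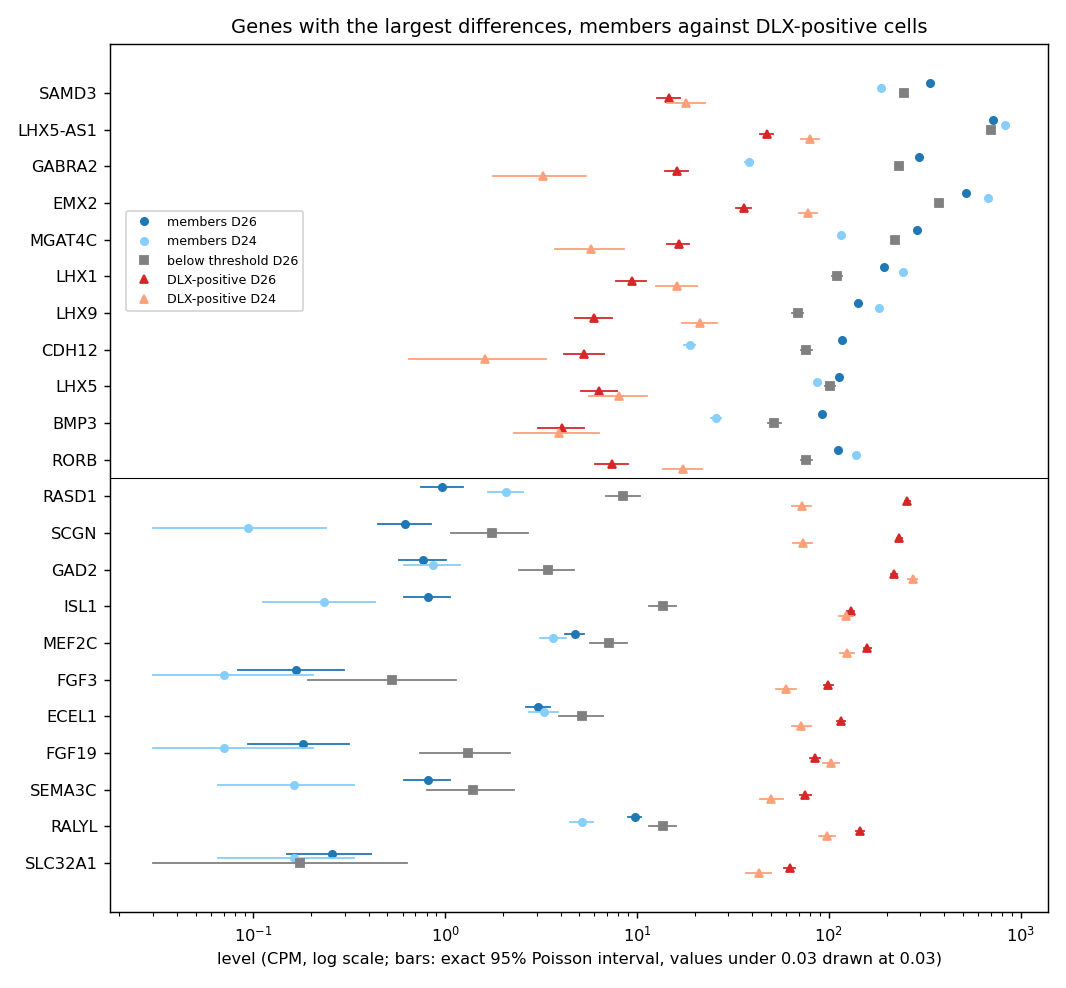
Levels (CPM, log x axis, exact 95% Poisson intervals) of 11 of the genes with the largest ratios in each direction, for TBR1/PPP1R17 cells ("members") and DLX-positive cells at D26 and D24 and for below-threshold D26 cells. Blue and red points stand on opposite sides for all 22 genes on both days, and the grey below-threshold points lie nearer the blue D26 points, except for ISL1.

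The same comparison was made in the D24 library, where 5278 of 9110 kept cells (57.9%) met the rule and 527 cells were DLX-positive. The D26 selection did not use that library. Its groups were made by the same rule, so genes that go with the rule genes would separate again, and the repeat is a description. Of the 129 genes called higher at D26, 83 were among the 2678 genes that reached 50 CPM in a group of each library. All 83 had the same sign at D24, and calls outside these 2678 genes were not compared. On all its own genes the D24 library had 125 of 2814 higher (4.44%) and 59 lower (2.1%). Within the genes of both libraries, calls numbered 90 higher at D24 (3.36%), of which 64 were shared, or 77.1% of the D26 calls and 71.1% of the D24 calls. For lower genes, 53 of the 76 called at D26 were among the genes of both libraries, and 50 were called at D24 (1.87%). Of these, 41 were shared (77.4% and 82.0%), and 51 of the 53 kept their sign. At D24 LHX1 stood at 245 against 16.2 CPM, EMX2 at 675 against 78.0 CPM and GAD2 at 0.863 against 274 CPM. The 4 unused markers also kept their direction at D24, though GABRA2 (38.2 against 3.24 CPM), CDH12 (18.8 against 1.62 CPM) and CALB2 (9.19 against 0.926 CPM) stood at lower levels in both groups than at D26. D26 and D24 shared 36 barcodes, 25 of them TBR1/PPP1R17 cells.

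**Figure D3:**
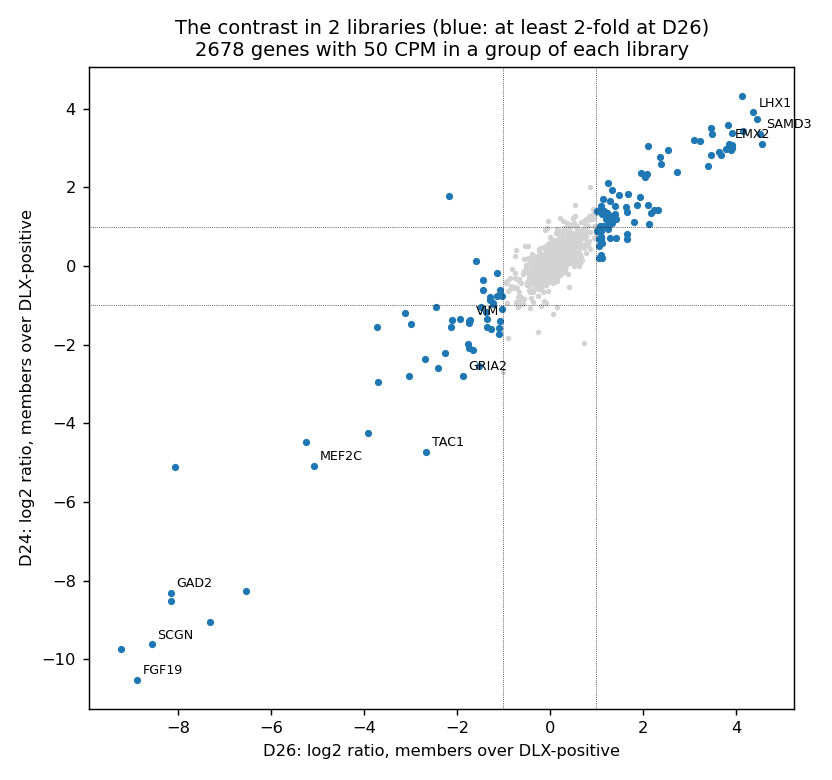
Log2 ratio of TBR1/PPP1R17 cells over DLX-positive cells at D26 (x axis) and D24 (y axis) for 2678 genes, with genes at least 2-fold apart at D26 in blue and dotted lines at a 2-fold difference. Blue points lie in the upper right and lower left, apart from 2 genes that were lower at D26 and not at D24.

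By gene group, LIM homeobox genes had 4 of 5 tested genes higher (LHX1, LHX2, LHX5 and LHX9, with LHX2 at 169 against 29.3 CPM) and ISL1 lower. The T-box and dorsal list had 3 of 6 higher, EMX2, SOX5 (78.9 against 25.2 CPM) and the proneural factor NEUROD1 (16 against 1.26 CPM), and BCL11B lower (0.151 against 19.1 CPM). The list of GABA synthesis, release and lineage had 9 of 10 lower and 1 higher.

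Glutamate genes did not move as a group, with 4 of 12 higher and 3 lower and a median log2 ratio of 0.26. Beside SLC17A6, the higher ones were the AMPA receptor subunit GRIA4 (49.4 against 10.0 CPM), the metabotropic receptor GRM7 (35.9 against 3.91 CPM) and the kainate receptor subunit GRIK2 (43.4 against 18.2 CPM). The lower ones were the AMPA subunit GRIA2 (72.3 against 264 CPM), the NMDA subunit GRIN2B (1.39 against 27.8 CPM) and the kainate subunit GRIK3, with 0.0151 against 15.8 CPM. Of 5 GABA-A receptor subunits tested, 2 were higher, among them GABRA2, and GABRB2 was lower (0.378 against 24.1 CPM).

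Cadherins and protocadherins had 7 of 15 tested genes higher and 3 lower. CDH18 stood at 75 against 4.95 CPM and the protocadherins PCDH9 and PCDH10 at 108 against 16.2 and 39.6 against 5.17 CPM, while CDH4 and CDH6 were lower, at 7.09 against 33.1 and 0.620 against 23.3 CPM. In the adhesion and migration list 8 of 25 were higher and 3 lower. The higher ones included RELN (232 against 75 CPM), the guidance ligand SLIT1 (124 against 23.9 CPM), its receptor ROBO1 (163 against 51.7 CPM) and the ephrin receptor EPHA3 (55.9 against 6.50 CPM). The lower ones were the netrin receptor UNC5D (3.39 against 51.2 CPM), the semaphorin SEMA3C (0.816 against 75.5 CPM) and the contactin CNTN1 (12.2 against 31.3 CPM). DCX, the microtubule protein of migrating neurons, was at 1107 against 975 CPM, so both groups carried it.

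Of 14 neuropeptide and secretory granule genes tested, 6 were higher and 4 lower. The higher ones included the prohormone convertases PCSK1 (146 against 13.7 CPM) and PCSK2 (168 against 25.5 CPM), the granule protein SCG2 (208 against 22.2 CPM) and the neuropeptide ADCYAP1 (18.5 against 1.92 CPM). TAC1, the precursor of substance P, was lower, at 38.4 against 242 CPM. Genes of the synaptic vesicle and excitability list differed little, with 2 of 18 higher: CACNA2D1, a calcium channel subunit, at 74.6 against 5.39 CPM, and SYT4 at 19.9 against 8.86 CPM. None of 16 cytoskeleton genes, 13 mitochondrial genes and 9 stress genes reached a 2-fold difference. Among 11 RNA-binding and splicing genes, ELAVL4 was higher (248 against 123 CPM) and RBFOX1 lower (1.30 against 62.0 CPM). Of 6 progenitor and cell cycle genes tested, 3 were lower and 1 higher. The lower ones were VIM at 209 against 685, NES at 64.2 against 165 and SOX2 at 1.45 against 41.9 CPM. FABP7, a fatty acid binding protein of radial glia, was higher at 431 against 85.6 CPM, and HMGB2 (21.1 against 22.3 CPM) and PCNA (17.6 against 17.5 CPM) were less than 2-fold apart.

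The other kept D26 cells include the below-threshold cells and the 506 cells with both a DLX UMI and 3 or more UMIs of the pair. Against all other kept D26 cells together, ratios were smaller. In that comparison 29 of 3355 genes were at least 2-fold higher (0.864%) and 33 lower (0.984%). The leading higher genes were LHX9 (142 against 48.3 CPM, log2 ratio 1.55), TNIP3 (85.4 against 30.2 CPM), LHX1, CALB2 and BMP3. Of the 4 markers that the rule did not use, 3 were at least 2-fold higher, while SLC17A6 was not, at 67.5 against 43.8 CPM. Lower genes not yet named were NR2F2 (2.71 against 54.3 CPM), a nuclear receptor of ventral and caudal forebrain, CRABP2, a retinoic acid binding protein (5.95 against 55.9 CPM), RND3 (19.1 against 114 CPM) and VCAN, the matrix proteoglycan versican (150 against 557 CPM).

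Against the 1697 below-threshold cells, only LHX9 was at least 2-fold higher in TBR1/PPP1R17 cells (1 of 3344 genes, 0.0299%; 142 against 68.8 CPM). The below-threshold cells still held GABRA2 at 233, EMX2 at 376 and LHX1 at 111 CPM. The 13 genes at least 2-fold lower in TBR1/PPP1R17 cells (0.389%) included CRABP1 (49.5 against 259 CPM), NR2F1 (37.1 against 121 CPM), VIM (209 against 484 CPM) and CALB1, the calcium-binding protein calbindin (51.0 against 116 CPM). IRX3, below the 50 CPM floor, stood at 0.801 CPM in TBR1/PPP1R17 cells and 24.4 CPM below the threshold. The below-threshold group was uneven. In its 687 cells with exactly 2 UMIs of the pair IRX3 stood at 2.83 CPM, CRABP1 at 47.8 CPM and GABRA2 at 305 CPM, while in its 486 cells with 0 UMIs of the pair they stood at 64.7, 595 and 107 CPM. The below-threshold cells had a lower median depth, 6919 UMIs, and its part in these differences was not tested.

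Under the same rule the share of kept cells was 7.88% at D22 (752 of 9539; 7.35 to 8.44%), 57.9% at D24 (56.9 to 59.0%) and 64.8% at D26. Cells with TBR1 only made up 36.4% of those selected at D22, 16% at D24 and 6.71% at D26, while cells with both genes made up 58.8%, 76.6% and 86.5%. Selected cells held a median of 11687 UMIs at D22 against 7472 at D24, and since selection needs UMIs, these shares are not at equal depth. Of all genes at 10 CPM, the median log2 ratio of D26 over D24 was 0.33, and ribosomal-protein genes took 14.3% of UMIs at D26 against 19.1% at D24 and MALAT1 stood at 50075 against 68318 CPM. Ratios between days are therefore given relative to that median, and on that scale 51 of 3397 genes were at least 2-fold higher at D26 (1.5%) and 118 lower (3.47%). Without that step the counts were 157 higher (4.62%) and 56 lower (1.65%), so the balance of directions depended on the scaling.

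From D24 to D26 the receptor, channel and adhesion genes named here stood higher in TBR1/PPP1R17 cells. GABRA2 went from 11 CPM at D22 through 38.2 at D24 to 296 at D26 (log2 2.62 over the median), CDH12 from 10.9 through 18.8 to 117 CPM (2.31) and CALB2 from 4.16 through 9.19 to 67.1 CPM (2.53). The AMPA subunits GRIA2 and GRIA4 stood at 14.1 and 6.62 CPM at D24 and at 72.3 and 49.4 CPM at D26, the sodium channel SCN2A at 22 and 103 CPM, and the glutamate transporter SLC1A2 at 12.2 and 67.7 CPM. GABRA2 was also higher at D26 in the DLX-positive cells, at 16.1 against 3.24 CPM. By list, 5 of 10 glutamate genes, 6 of 12 cadherins and 6 of 25 adhesion genes were at least 2-fold higher over the median, with 0, 0 and 3 lower. Over all 8378 genes at 10 CPM, 2.39% were higher and 3.54% lower on that scale.

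Several factors of newly born neurons stood lower at D26. EOMES, the T-box factor of intermediate progenitors, was at 164 CPM at D22, 51.1 at D24 and 0.680 at D26 (log2 -6.57 over the median from D24 to D26). NEUROG1, a proneural bHLH factor, was at 225, 35.0 and 0.529 CPM, NHLH1 at 147, 16.2 and 1.39 CPM and the Notch ligand DLL3 at 270, 88.7 and 29.9 CPM. RSPO3, a secreted amplifier of Wnt signalling, was at 485 CPM at D24 and 11.8 at D26, the G protein subunits GNG5 and GNG8 at 263 and 384 CPM against 15.6 and 39.1 CPM, and TRH, the precursor of thyrotropin-releasing hormone, at 192 against 22.9 CPM. RSPO3 and GNG5 were lower at D26 in the DLX-positive cells too, at 1.55 against 46.3 CPM and 30.1 against 197 CPM. In the T-box and dorsal list 7 of 11 genes were lower and 3 higher, the latter including PAX6 (31.2 to 124 CPM). In the young neuron list 4 of 6 were lower, while INSM1 (100 to 111 CPM) and HES6 (33.4 to 52.1 CPM) were less than 2-fold apart.

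Other identity genes changed less between D24 and D26. SLC17A6 stood at 94.3, 71.8 and 67.5 CPM on the 3 days, LHX5 at 100, 87.1 and 113 CPM, and LHX1 at 121, 245 and 195 CPM. LHX2 was the LIM gene that passed 2-fold, at 415 CPM at D24 and 169 at D26. Of 16 cytoskeleton genes 0 passed 2-fold over the median, with STMN2 at 9319 and 8197 CPM.

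**Figure D4:**
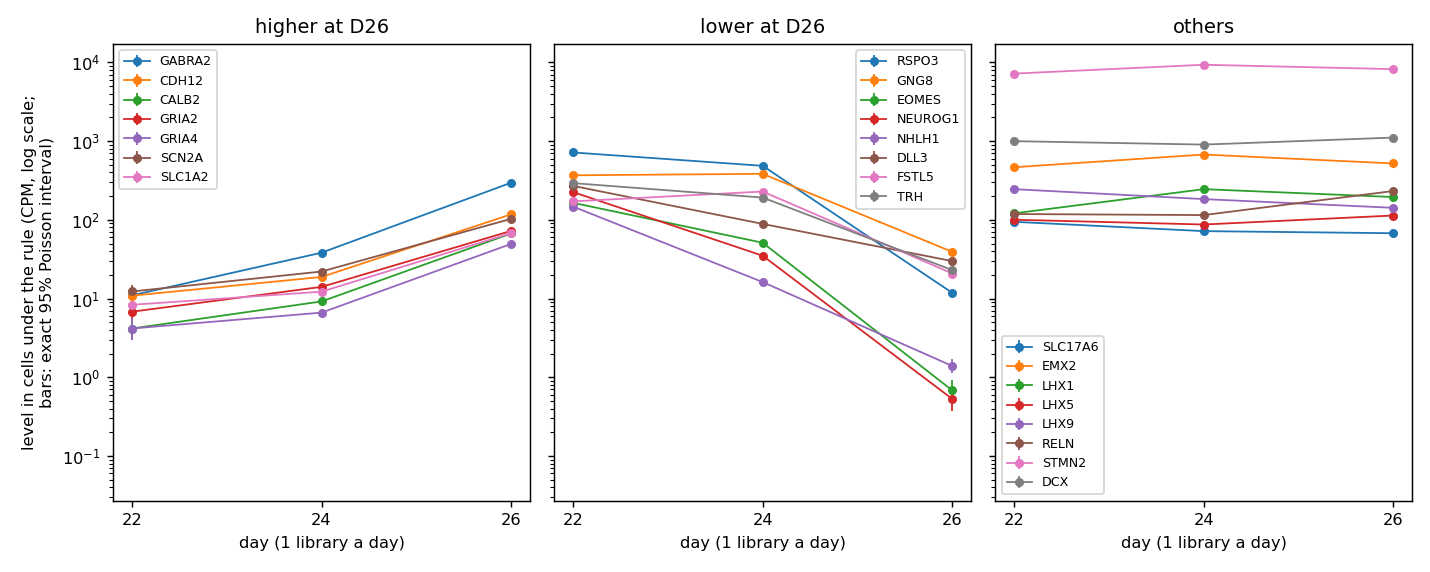
Levels (CPM, log y axis, exact 95% Poisson intervals) in the cells selected by the same rule at D22, D24 and D26, 1 library a day. The left panel shows genes higher at D26, such as GABRA2 from 11 to 296 CPM, the middle panel genes lower at D26, such as EOMES from 164 to 0.680 CPM, and the right panel genes that moved less.

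Cells with UMIs of only 1 of the 2 selecting genes were at least 2-fold apart in few other genes at the 50 CPM floor. That count does not show that the cells were alike. Between the 481 TBR1-only and the 484 PPP1R17-only cells, 7 of 3400 genes were at least 2-fold higher (0.206%) and 2 lower (0.0588%). The split was not compared at D22, nor at D24, where 846 cells held TBR1 only and 390 PPP1R17 only. FOXP2, a forkhead factor of projection neurons, had the largest ratio, at 51.4 against 4.43 CPM (log2 3.54, 2.80 to 4.37). The others were UNCX (60.1 against 18.6 CPM), TAC1 (83.4 against 27.4 CPM), PTPRD (107 against 43.5 CPM), MEIS2, a homeobox factor (463 against 200 CPM), the semaphorin receptor NRP2 (88.2 against 42.9 CPM) and VIM (365 against 179 CPM). CRABP1 was lower in TBR1-only cells, at 34.2 against 89.7 CPM, as was the mitotic gene CENPF, at 5.83 against 54.0 CPM. With a threshold of 5 UMIs for the pair the CENPF ratio turned to 0.55 on the log2 scale. SLC17A6 was at 94.3 CPM in TBR1-only cells (84.9 to 104) and 50.1 CPM in PPP1R17-only cells (43.1 to 58.0). At the 10 CPM floor, 62 of 8460 genes were higher and 26 lower in TBR1-only cells. Of 9 progenitor and cell cycle genes tested at that floor, 4 were lower and 1 higher.

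Variation between TBR1/PPP1R17 cells was read for the genes that stood out most. Over 7110 genes, the variance divided by the mean of UMIs thinned to 1500 per cell had a median of 1.01, where 1 is the value for counting alone, and a 95th percentile of 1.06. Thinning and low means bring this ratio near 1, so values near 1 do not show that cells were alike. Genes far above it were MALAT1 (6.87), the tubulin TUBA1A (3.07), CRABP1 (2.52), VIM (1.70) and the SOX factors SOX4 (1.69) and SOX11 (1.56). Among genes of neuronal identity, MEIS2 reached 1.49 and CALB2 1.42. MEIS2 was at 0 in 33.6% of cells with a median of 144 CPM and an upper quartile of 384 CPM.

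Clustering of the 7169 cells gave 7 sub-clusters, whose leading genes come from the same cells and are a description. The largest held 2288 cells (31.9%) and was led by ONECUT3, a cut homeobox factor, at 86.0 CPM against 17.5 CPM in the rest, with PTGER3, MAB21L2 and PCDH10. The next held 2183 cells (30.5%) and was led by TAC1 (64.1 against 28.4 CPM) and CALB1 (83.3 against 38.4 CPM), with MEIS2. A group of 1206 cells (16.8%) was led by noncoding and mitochondrial transcripts and FAT1, and a group of 1067 (14.9%) by CLIC1, with LHX9 at 211 against 131 CPM. In these 4 groups TBR1 ranged from 299 to 381 CPM and PPP1R17 from 525 to 661 CPM. A group of 107 cells (1.49%) was led by CENPF, PHGDH and TOP2A, with MTHFD2 and CRABP1 further down, and 27.1% of its cells were scored as doublets. In the 87 D26 cells with 2 or more CENPF UMIs, 8 of its 9 other leading genes were at least 2-fold higher than in the rest. PHGDH, however, stood at only 10.7 CPM there, against 116 CPM in the sub-cluster. MTHFD2 was at 102 CPM in the sub-cluster, but at 2.92 CPM in those 87 cells, against 7.03 CPM in the rest. The smallest, of 55 cells, had a median of 3178 UMIs and a mitochondrial share of 7.38%.

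The remaining sub-cluster, of 263 cells (3.67%; 3.25 to 4.13%), was led by FOXP2 at 166 CPM against 4.20 CPM in the other TBR1/PPP1R17 cells. It also had LYPD1 (77.5 against 6.36 CPM), TAC1 (174 against 33.5 CPM), MEIS2 (985 against 233 CPM) and the kinase PRKG2 (32.3 against 0.501 CPM). TBR1 stood at 386 CPM and PPP1R17 at 189 CPM there, the lowest PPP1R17 level of the 7. LHX1 (52.5 CPM), LHX9 (34.5 CPM) and CALB2 (15.5 CPM) stood below their levels over all TBR1/PPP1R17 cells, while SLC17A6 was at 119 CPM (105 to 134), GABRA2 at 298 CPM and GAD2 at 1.29 CPM. Of these cells 2.66% were scored as doublets, and the median depth was 8472 UMIs. The sub-cluster depended on the setting. It formed at resolution 1.0 (299 cells), but not at 0.25, after thinning to 1500 UMIs or with doublets removed, where the group with the most FOXP2 held 3106, 2860 and 1478 cells.

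**Figure D5:**
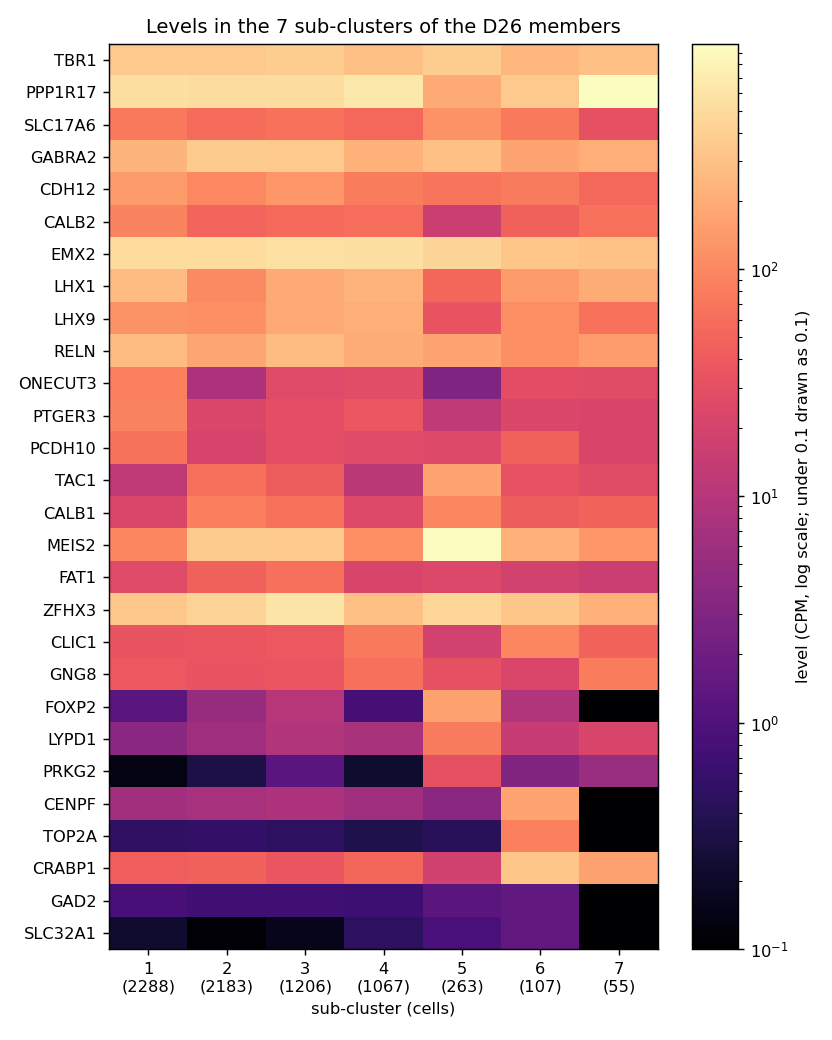
Levels (CPM, colour on a log scale) of selected genes in the 7 sub-clusters of the TBR1/PPP1R17 cells ("members") of D26, with the number of cells under each column. Sub-cluster 5, with 263 cells, stands out by FOXP2 at 166 CPM and MEIS2 at 985 CPM together with low PPP1R17, LHX1 and LHX9.

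The leading genes were then followed in the D24 library, which the clustering did not use, by comparing TBR1/PPP1R17 cells with 2 or more UMIs of a sub-cluster's leading gene with the rest, passing over clone-named and mitochondrial genes. In the FAT1 sub-cluster AC008522.1 and MT-ND6, so passed over, ranked above FAT1. At D24, 129 cells (2.44%) held 2 or more FOXP2 UMIs, and 8 of the 9 other leading genes of that sub-cluster were at least 2-fold higher in them, against 1.38% of 7893 genes. PRKG2 stood at 10.3 against 1.08 CPM, WLS, the Wnt carrier, at 16.7 against 2.16 CPM, LYPD1 at 35.7 against 9.73 CPM and MEIS2 at 420 against 177 CPM. MAB21L1 was the exception, at 65.9 against 35.7 CPM, and for INHBA-AS1 the interval of the ratio included 0. These FOXP2 cells had a median of 8890 UMIs against 7442 in the rest. For ONECUT3, 102 D24 cells qualified and 5 of 9 genes were at least 2-fold higher, against 1.18% of all genes. For CENPF, 43 cells qualified and 7 of 9 were higher, against 9.06% of all genes, while IGFBP5 had 0 UMIs in them and 35 in the rest. These CENPF cells had a median of 10299 UMIs against 7459 in the rest, and at D22, where doublets were not scored, 21022 against 11612. The second largest sub-cluster has no check at D24, where only 15 cells held 2 or more TAC1 UMIs. The CLIC1 gate took 2711 D24 cells (51.4%), with a median of 7945 UMIs against 7006 in the rest, and the FAT1 gate 97 (1.84%). For CLIC1 and FAT1, 0 of 9 were at least 2-fold higher in either library, with 1 of 7604 and 61 of 7902 genes higher at D24 (0.0132% and 0.772%). In the D22 library, of 752 selected cells, 4 of 9 were at least 2-fold higher with ONECUT3 (59 cells; 2.79% of all genes), 5 of 9 with CENPF (49 cells; 5.45%), 1 of 9 with FAT1 (76 cells; 3.02%) and 0 of 9 with CLIC1 (650 cells; 1.18%), while only 18 cells held 2 or more FOXP2 UMIs and were not compared. Some genes stood the other way, at D22 SMIM32 (1.08 against 11 CPM) in the ONECUT3 cells and CRABP1 (82.6 against 132 CPM) in the CENPF cells, and at D24 LINC01201 (3.14 against 4.60 CPM; log2 ratio -0.55, -1.01 to -0.09) in the CLIC1 cells. SMIM32 (4.09 against 4.37 CPM), PCDH11X (10.2 against 14.0 CPM) and PCDH10 (9.19 against 11.8 CPM) were also lower in the ONECUT3 cells of D24, each with an interval that included 0. In all compared gates at D24 and D22 the gated cells had the higher median depth, and its part in these counts was not tested.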

How the data were processed

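Single-cell 3′ RNA was measured with the Chromium v3 chemistry. The authors deposited UMI counts per gene and barcode, made with Cell Ranger (3.1 per the submitters' notes, 3.1.0 in the headers of the D22, D24 and D26 matrices and 6.1.2 in that of the multiplexed run) on GRCh38. The members of this cell group and all gene lists were chosen with earlier results of these data known.

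From the counts, groups of cells were summed and expressed as CPM (UMIs per 1000000 UMIs). Each group is 1 library, so no test across samples was run. Intervals are exact Poisson for levels, exact binomial for the split of UMIs behind a ratio, and Clopper-Pearson for shares, all at 95%. They treat UMIs as independent, so a gene whose UMIs come from a handful of cells is less certain than its interval. A gene counted as different at a ratio of 2-fold or more, whatever its interval, among genes with 50 CPM in either group (10 CPM for lists). The genes named were the 12 in each direction with the largest log2 ratio after 10 CPM had been added to both levels, leaving out rule genes, mitochondrial and ribosomal-protein genes and clone names, plus listed genes, marker genes, the 15 genes of largest variance over mean and the 10 leading genes of each sub-cluster. Examples within lists, IRX3 included, were picked after their values were seen.

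Kept UMIs numbered 131187195 at D22, 70240335 at D24, 99677924 at D26 and 420090128 in the multiplexed run. Doublets were scored with Scrublet in scanpy 1.11.5 (expected 6%, 2 simulated per cell). Its automatic threshold marked almost no cell, so a score of 0.25 was used, and marked cells were kept except in alternatives. D22 cells were not scored. Sub-clusters used 2000 variable genes, 30 principal components, 20 neighbours and Leiden resolution 0.5 (igraph 0.11.9). Other tools were Python 3.11.15, numpy 2.4.6, scipy 1.17.1, pandas 2.3.3, scikit-learn 1.9.0 and matplotlib 3.10.9. The ratio step was run on 20 simulated data sets with 200 of 3226 genes changed, for the comparison with DLX-positive cells. All changed genes were recovered (100%) with 0 false calls. Every planted change lay beyond the 2-fold cut, and counts were drawn as Poisson. The recovery therefore checks the arithmetic only and says nothing about spread between cells or cultures. Gene positions are GENCODE v44 and promoter windows RefSeq. Some genes that the rule names are not reported here.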

Additional observations from a re-analysis of the deposited data

How the results depend on the processing

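No paired analysis was possible because each day is 1 library and no result comes from a test across samples. The number of TBR1/PPP1R17 cells stayed within 5511 to 7856 over the alternatives (threshold of 5 or 2 UMIs, thinning, 1 DLX UMI allowed, GNRH1 limit dropped, stricter filters, doublets removed). Counts of genes past 2-fold followed the level floor by construction. Against other kept cells, 62 genes became 194 at 10 CPM, 30 at 100 CPM, 2580 with no floor and 25 at a threshold of 5 UMIs, where 5 were higher and 20 lower. Against DLX-positive cells, 205 became 586, 103 and 4097 at those 3 floors. For D26 against D24, 213 became 684, 97 and 4162, and median-ratio scaling moved the split to 44 higher and 128 lower, scaling without mitochondrial and ribosomal genes to 132 and 77. For TBR1-only against PPP1R17-only cells, 9 became 88, 3 and 1426, 27 after thinning and 15 at 5 UMIs, and CENPF reversed to 0.55. The 7 sub-clusters became 4 at resolution 0.25, 12 at 1.0 and 2 after thinning. Without doublets, where 6 formed, FOXP2 fell in a group of 1478 cells, and the cause was not tested. The share of cells with a UMI, without thinning and thinned to 3000, was 39.2% and 17.3% for SLC17A6, 83.1% and 54.8% for GABRA2, 59.2% and 29.1% for CDH12, and 27.0% and 13.8% for CALB2. Of 612 single-gene ratios under an alternative, 434 stayed within their interval, 177 moved beyond it and 1 reversed, with a median shift of 0.08 on the log2 scale. The D24 repeat, the ratios over the median gene and the gates on leading genes were chosen after seeing the data. Depth limits both which cells meet the rule and the share of cells with a UMI of a gene, and with 1 library a day the spread between cultures is unknown.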
